A study of Mus musculus with 5 samples.

Results

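Cytosolic ribosomal protein genes were examined for ACAA2 binding in mouse heart chromatin. Members were the rows of the deposited region table whose gene list names a small subunit (Rps), large subunit (Rpl) or stalk (Rplp) protein gene, with pseudogene names and the Rps6k kinases left out. The rule found 61 of 3885 regions, naming 48 gene symbols. It uses names only and no signal. ACAA2 is the mitochondrial 3-ketoacyl-CoA thiolase of fatty acid beta-oxidation, and ChIP-seq, the sequencing of DNA precipitated with an antibody, mapped where it lay on chromatin. The mice were C57Bl/6J males, 12 weeks old. The 4 groups were sham surgery on a diet with 10 kcal% fat (the control diet), transverse aortic constriction (TAC, a narrowing of the aorta that loads the left ventricle) on that diet, sham surgery on a 60 kcal% fat diet, and TAC on the 60 kcal% fat diet. Diets began 4 days before surgery and went on for a further week. Each group is 1 library and the extraction text speaks of pools of 3, so the spread from heart to heart is unknown and nothing could be tested. That text names antibodies to butyrylated and acetylated histone H3 lysine 9, while the antibody label and the column names give ACAA2. A pooled input sample is listed and was not analysed here.

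Ribosomal proteins join ribosomal RNA in a small subunit, which reads the mRNA, and a large subunit, which forms the peptide bond. The stalk proteins of the large subunit recruit the translation factors that hydrolyse GTP. Their genes are transcribed in nearly every cell from CpG-rich promoters, and in mammals their mRNAs begin with a tract of C and T bases, the terminal oligopyrimidine motif, through which translation follows mTOR signalling. Many of them carry small nucleolar RNA genes in their introns and have processed pseudogenes elsewhere in the genome. Protein synthesis rises as heart muscle grows under pressure load.

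Promoter sequence was printed first for the members with a region at their start that was called in all 4 libraries. These are the sites of the family called in every group. Each sequence holds 100 bases before the RefSeq start and 50 bases from it on (GRCm38.p6, RefSeq), on the strand of the gene. Capitals mark the longest run of C and T within 25 bases of the start. A run that crosses this limit is marked only up to it, as at Rpl10a. Rps26 (chr10:128626457-128626606, minus strand), Rpl4 (chr9:64173287-64173436, plus), Rpl9 (chr5:65391382-65391531, minus), Rpl10a (chr17:28328465-28328614, plus) and Rpl23 (chr11:97782390-97782539, minus) are shown. Rpl32 was the other member of this kind.
Rps26: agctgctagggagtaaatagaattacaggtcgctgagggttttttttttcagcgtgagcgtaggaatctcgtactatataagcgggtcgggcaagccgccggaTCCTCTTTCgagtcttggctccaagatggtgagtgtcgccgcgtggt
Rpl4: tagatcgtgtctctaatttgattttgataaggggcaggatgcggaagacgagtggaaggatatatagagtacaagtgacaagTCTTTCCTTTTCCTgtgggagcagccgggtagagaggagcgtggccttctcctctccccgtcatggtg
Rpl9: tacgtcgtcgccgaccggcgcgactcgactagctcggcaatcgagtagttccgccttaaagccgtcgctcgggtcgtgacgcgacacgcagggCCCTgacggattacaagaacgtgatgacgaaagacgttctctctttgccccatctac
Rpl10a: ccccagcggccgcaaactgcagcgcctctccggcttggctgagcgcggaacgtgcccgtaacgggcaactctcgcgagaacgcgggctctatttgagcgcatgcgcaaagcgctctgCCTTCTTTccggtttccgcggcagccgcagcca
Rpl23: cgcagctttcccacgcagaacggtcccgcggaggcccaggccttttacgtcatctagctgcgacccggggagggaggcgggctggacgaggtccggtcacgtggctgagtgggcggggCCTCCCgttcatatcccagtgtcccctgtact

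A further set is shown because its members had among the highest signals or the largest ratios described below: Rps18 (chr17:33955616-33955765, minus strand), Rpl35 (chr2:39005082-39005231, minus), Rpl14 (chr9:120571417-120571566, plus) and Rplp2 (chr7:141447551-141447700, plus).
Rps18: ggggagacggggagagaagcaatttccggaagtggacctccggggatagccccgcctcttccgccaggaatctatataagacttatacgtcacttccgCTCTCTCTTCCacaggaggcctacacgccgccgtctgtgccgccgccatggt
Rpl35: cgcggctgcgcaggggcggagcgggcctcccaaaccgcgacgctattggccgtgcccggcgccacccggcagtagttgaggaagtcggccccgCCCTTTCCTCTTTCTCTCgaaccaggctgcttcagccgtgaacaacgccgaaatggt
Rpl14: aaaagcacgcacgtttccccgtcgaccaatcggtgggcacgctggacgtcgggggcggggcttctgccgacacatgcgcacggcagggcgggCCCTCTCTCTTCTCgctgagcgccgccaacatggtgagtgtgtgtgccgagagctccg
Rplp2: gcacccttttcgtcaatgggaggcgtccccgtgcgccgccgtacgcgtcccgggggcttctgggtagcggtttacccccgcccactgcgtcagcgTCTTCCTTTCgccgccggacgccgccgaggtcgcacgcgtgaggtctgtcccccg

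The marked run reached 18 bases at Rpl35 and 14 bases at Rpl14 and Rpl4, and it spanned the start at Rpl35, Rpl14, Rps18 and Rplp2. At Rpl9 it was 4 bases long, and a longer run in the printed sequence lies more than 25 bases into the gene and was not counted. Over the 42 RefSeq windows of the 35 members with a region in the window, the median run was 7 bases, against 5 over all 32851 promoter windows. A run of at least 8 bases was found in 47.6% of the members' windows, in 48.1% of the 27 windows of standard ribosomal protein genes without a region, and in 19.7% of all windows. The share was thus nearly the same in genes of the family with a region and in those without.

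The standard cytosolic ribosome list holds 79 genes, and 46 of them (58.2%, Wilson 95% interval 47.2 to 68.5%) were named in at least 1 region. Of all 21896 protein-coding genes 20.8% were. The share was 18 of 32 small subunit genes (56.2%), 25 of 44 large subunit genes (56.8%) and 3 of 3 stalk genes. Rpl3l, a striated muscle paralog of Rpl3, and Rps27l, a paralog of Rps27, complete the 48 symbols. Rpl3l was named only because the Rps2 region lies 7793 bp upstream of it. The 33 standard genes without a region included Rpl3, Rpl5, Rpl11, Rps4x, Rps6 and Rps24, and a gene without a region is one with no called interval, not one shown to lack signal. Rpsa and Fau, also on the standard list, fall outside the naming rule and had no region either. Rpl36al, a paralog whose name the rule does not match, had a region at its start and is not among the 61.

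Most of the member regions lay at the starts of the genes. By the authors' distances, 48 of the 61 regions lay within 1000 bp of the member's own start, 44 of these within 300 bp, and 37 spanned it. These 48 regions belonged to 45 genes. Their centres ran from 609 bp upstream to 482 bp inside the gene, with a median of 28 bp upstream. In 39 of the 48 no start of another gene, small nucleolar RNAs aside, was listed within 1000 bp. The other 9 share their promoter, and there the signal cannot be given to either gene. Examples are Rpl9 with Lias (lipoic acid synthase), Rps28 with Ndufa7 (a subunit of respiratory complex I), and Rpl7a with Med22 (a Mediator subunit). Rpl4 with Zwilch, Rps18 with Vps52 and Rps2 with Snhg9 are also among them. Small nucleolar RNA genes were listed in 15 of the 48. A place at a start is common among the regions. Of all 3885 regions 82.6% held a promoter, and 31 of 44 mitochondrial ribosomal protein regions lay within 1000 bp of an own start.

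**Figure D1:**
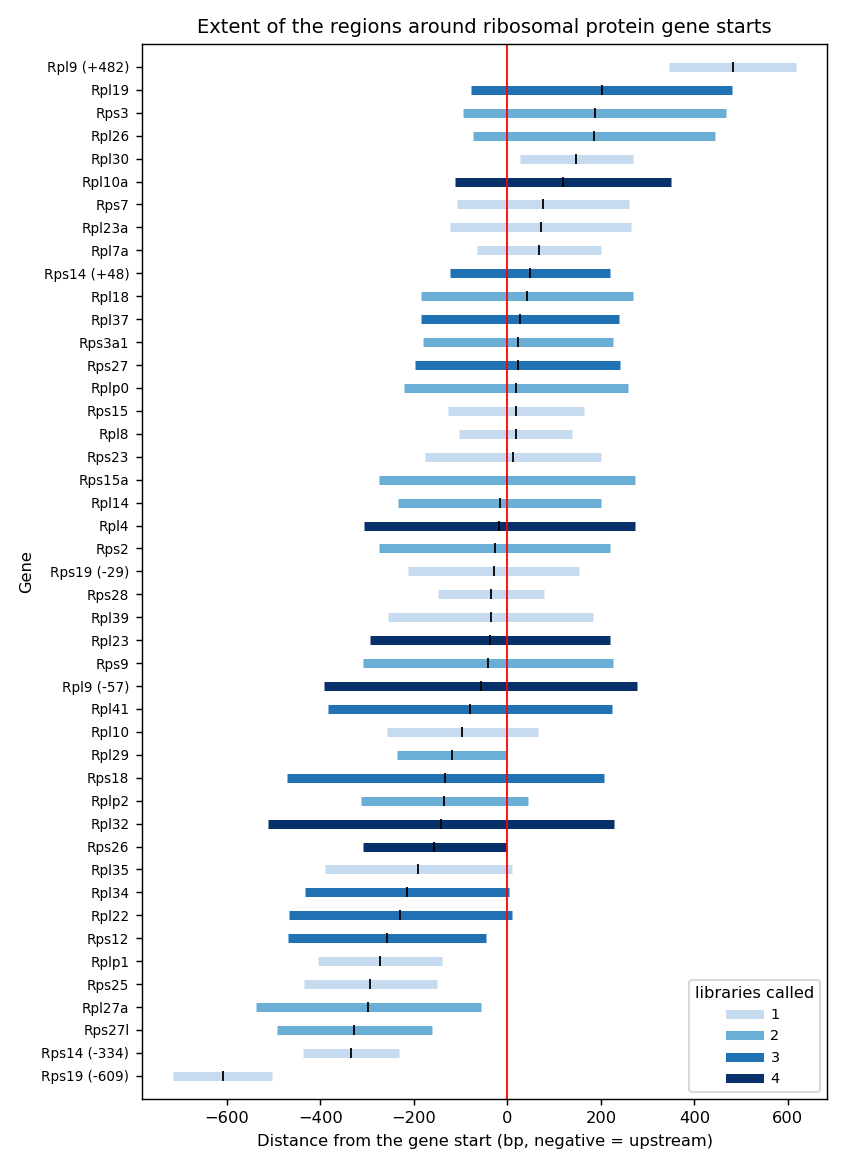
Extent of 45 of the 48 regions within 1000 bp of a ribosomal protein gene start, as distance from the start in bp, 1 bar per region, with a tick at its centre and a darker shade for more libraries called. Of the 45 bars 34 cross the start, and the Rps26 bar lies wholly upstream of it.

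The remaining 13 regions lay between 2438 and 11275 bp from the member's start, and 8 of these lay within 1000 bp of the start of another gene. The region 8078 bp downstream of the Rpl24 start lay at Zbtb11, and the region 5987 bp downstream of the Rpl4 start lay at Snapc5. A further pair, 7518 and 8423 bp from Rplp2, lay at Pnpla2, the adipose triglyceride lipase gene. Values of these 13 are therefore given as values of the region, not of the ribosomal protein gene. Rpl17 and Rpl24 had no region at their own start.

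A promoter was assigned to 60 of the 61 regions (98.4%, 91.3 to 99.7%) and a CpG island to 56 (91.8%, 82.2 to 96.4%), against 82.6% and 73.7% of all regions. Of the 48 regions at an own start 47 held a CpG island. The exception was Rpl4, whose 300-base RefSeq window had 40.7% G and C and 13 CpG pairs, where the median over the 42 member windows was 59.2% and 23. Only 6 of the 61 regions (9.84%) had a single gene assigned, against 44.1% of all regions, so most of them are also listed under a neighbouring gene.

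Over all regions the libraries held between 49593 (sham, 60% fat) and 75313 (sham, 10% fat) estimated fragments, and the depth outside the regions was not known. The member regions took 2.02%, 1.95%, 1.92% and 1.96% of these fragments in sham and TAC on 10% fat and sham and TAC on 60% fat. They covered 1.77% of the total region length. The median member region held 22.6, 20.8, 15.6 and 19.1 fragments in that order, so a single ratio is imprecise. Binding is no measure of expression, so the tissue was not checked by it: of the marker genes listed, 4 of 10 cardiomyocyte, 1 of 6 endothelial, 0 of 6 fibroblast and 1 of 6 macrophage and leukocyte genes were named in a region, none at its start.

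Median signal at ribosomal protein gene starts was above that of all regions in each library. It was above that of promoters with a CpG island by less. Average signal, which is the fragment pileup averaged over a region, was compared by its median with no scaling for depth added here. Over the 48 own-start regions this was 13.6 (sham) and 12.6 (TAC) with 10% fat, and 8.39 (sham) and 11.7 (TAC) with 60% fat. The medians over all regions were 11.8, 10.7, 7.29 and 9.67, and those over the 2711 promoters with a CpG island were 12, 11.3, 7.65 and 10.1. Of the 61 member regions 46 (75.4%) reached the all-region median of the mean signal. The 13 regions away from own starts had lower medians of 12.6, 9.735, 7.5 and 8 in the same order.

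Rps26, whose product lines the mRNA exit channel of the small subunit, had the highest mean signal of all 3885 regions. Its signal was 28.3 (sham) and 23.7 (TAC) with 10% fat, and 23 (sham) and 19.6 (TAC) with 60% fat. It was highest in the sham library on 10% fat and lowest in TAC hearts on 60% fat, and all 4 ratios were under 2-fold, from -0.22 to -0.29 on the log2 scale. The region (chromosome 10, 128626509 to 128626815 in mm10) ends just upstream of the RefSeq start printed above, is 306 bp long and has a CpG island.

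Rplp2, a stalk protein gene, followed among the members with 13.5 (sham) and 17.5 (TAC) given 10% fat and 12.1 and 20.4 given 60% fat, so TAC was the higher library on each diet. Rpl4, whose protein reaches into the peptide exit tunnel, had 15.7 and 16.6 on 10% fat and 12.6 and 13.9 on 60% fat, a narrow range. Rps18, a protein of the small subunit head, had 22.7 in sham hearts on 10% fat and 12.3, 11 and 12.2 in TAC on 10% fat, sham on 60% fat and TAC on 60% fat. Its sham library on 10% fat thus stood apart from the other 3. Rpl9 had 17 and 14.6 on 10% fat and 11.2 and 14.2 on 60% fat at its start. Its lowest library was sham on 60% fat.

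**Figure D2:**
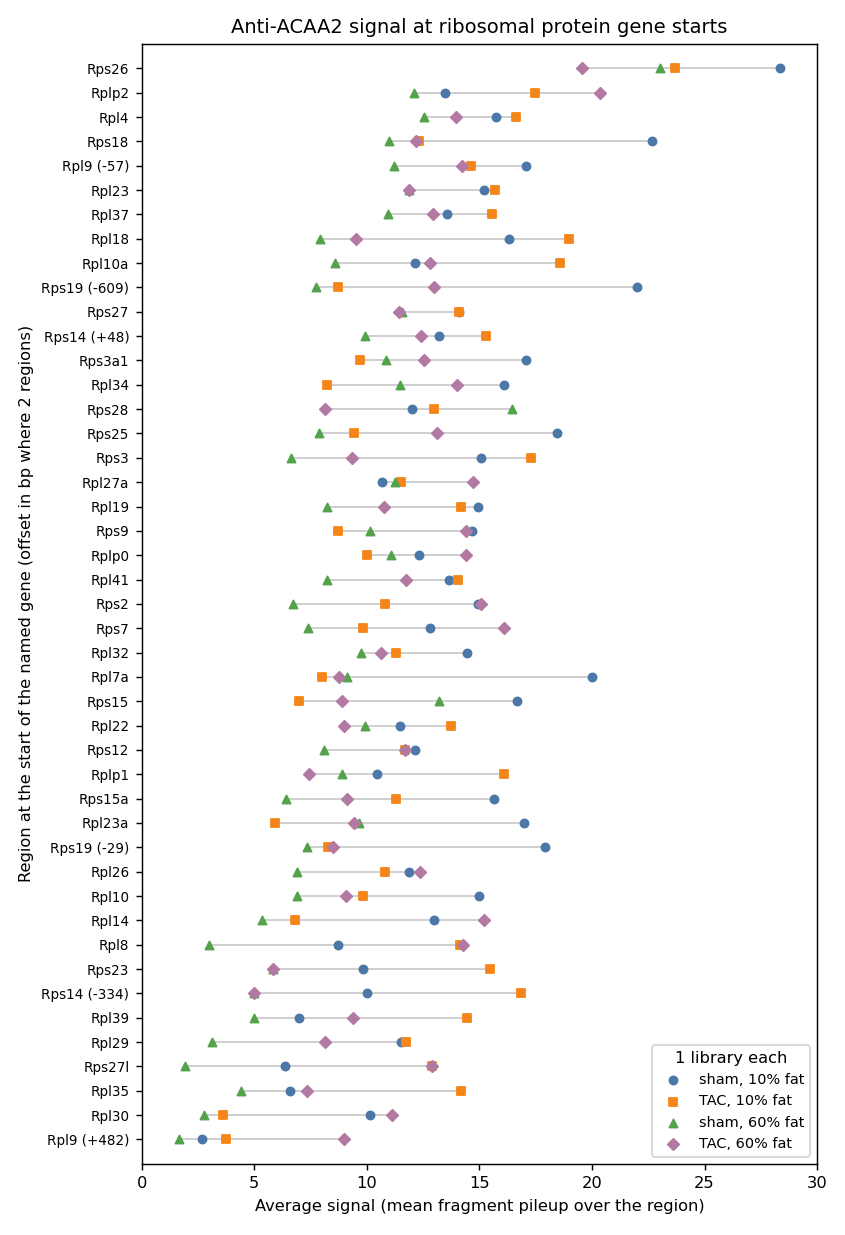
Average signal (mean fragment pileup, x axis) of 45 of the 48 regions at ribosomal protein gene starts (y axis, ordered by the mean), 1 symbol per library for sham and TAC hearts on 10% and 60% fat, with a grey line over the range. Rps26 lies between 19.6 and 28.3, above every other region shown in mean signal, and the sham library on 60% fat is often the lowest.

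Calls were spread over few libraries. Called intervals fell in 42 (sham, 68.9%) and 29 (TAC, 47.5%) of the 61 regions with 10% fat, and in 11 (sham, 18.03%) and 31 (TAC, 50.8%) with 60% fat. Over all regions these shares were 57.3%, 46.8%, 15.4% and 35.9%. Of the member regions 6 (9.84%, 4.59 to 19.8%) were called in all 4 libraries, against 4.12% of all regions, and 30 (49.2%) in 1 library, against 63.8%. The 6 were those at Rps26, Rpl4, Rpl9, Rpl10a, Rpl23 and Rpl32. They had a median length of 546.5 bp, against 289.5 bp in the member regions called in 1 library, and merging of called intervals lengthens a region. Rpl10a had 12.1 (sham) and 18.6 (TAC) with 10% fat and 8.57 and 12.8 with 60% fat. Rpl23, which in human cells also binds the p53 regulator MDM2, had 15.2 and 15.7 on 10% fat and 11.9 in each library on 60% fat. Rpl32 had 14.4 and 11.3 on 10% fat and 9.74 and 10.6 on 60% fat. At none of the 6 did any of the 4 ratios reach 2-fold.

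On 10% fat diet the comparison of TAC with sham hearts asks how pressure load on the control diet goes with ACAA2 signal. With a pseudocount of 1, the median log2 ratio of the 61 regions was -0.071 (order-statistic 95% interval -0.32 to 0.075), beside -0.14 over all regions. A ratio 2-fold or more lower was seen in 8 of the 61 (13.1%), against 11.7% of all regions, and one as much higher in 1 (1.64%), against 7.98%. Centred on the all-region median, the member median was 0.067, with 3 regions higher and 7 lower. The share of lower regions was near the background, and that of higher regions was under it. Small subunit regions had a median of -0.35 (-0.76 to 0.11), with 4 of 23 lower and 0 higher, and large subunit regions -0.035 (-0.32 to 0.19), with 4 of 32 lower and 1 higher. Their intervals overlap, and the difference was not tested.

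Rps19, the gene most often mutated in human Diamond-Blackfan anaemia, was lower in both regions at its start. The region centred 609 bp upstream had 22 in sham and 8.71 in TAC hearts, a log2 ratio of -1.24 (counting interval -2.78 to -0.16). The region 29 bp upstream had 17.9 and 8.25, a ratio of -1.03 (-2.22 to -0.17). Rpl23a, which lies at the mouth of the peptide exit tunnel, had 17 in sham and 5.92 in TAC hearts, with -1.38 (-2.74 to -0.46). Rpl7a at its start, in the promoter shared with Med22, had 20 and 8, with -1.22 (-2.70 to -0.26). Rps15, a protein near the decoding site, had 16.7 and 7, with -1.14 (-2.59 to -0.11). At these 5 regions the counting interval lay below 0, but each was called only in the sham library on 10% fat and so entered the table through the library where it is high. The ratio of the remaining lower regions was -1.27 at Rpl30, -1.27 at the region 5987 bp downstream of the Rpl4 start and -1.29 at the region 2438 bp upstream of the Rps28 start, each with a counting interval that included 0. The last of these was also called only in the sham library on 10% fat, where it is high.

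Rpl35, another protein at the exit tunnel, was the region that reached 2-fold higher. Its start had 6.58 in sham and 14.2 in TAC hearts, with 1.00 (0.01 to 2.19). Rpl39, a short protein of the exit tunnel wall, had 7 and 14.5, with 0.95 (0.03 to 2.04). The upstream region of Rps14 had 10 and 16.8, with 0.70 (-0.55 to 2.11), a ratio that its counts do not set apart from 0. Each of these regions was called only in the TAC library on 10% fat. They too entered the table through the library where they are high. Over the 61 regions the counting interval lay above 0 in 2 and below 0 in 8, against 5.66% and 9.68% of all regions. In the 34 member regions called in a library on 60% fat, which the comparison does not use, 2 were 2-fold lower (5.88%) and 0 higher, beside 5.81% and 3.17% of all such regions.

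On 60% fat diet the same comparison gave higher signal after TAC in 43 of the 61 member regions, as it did in 2668 of all 3885. The median log2 ratio was 0.30 (0.14 to 0.45), beside 0.32 over all regions. Of the 61, 10 (16.4%) were at least 2-fold higher, against 15.5% of all regions, and 0 at least 2-fold lower, against 3.11%. The higher share is that of the background. The median was 0.19 (0 to 0.47) in the small subunit and 0.35 (0.14 to 0.76) in the large subunit. After centring the member median was -0.026, with 5 regions 2-fold higher and 2 lower, so its sign depends on the level shared by all regions. In the 51 member regions called in a library on 10% fat, 4 were 2-fold higher (7.84%), beside 9.93% of all such regions.

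Rps27l, a p53-responsive paralog of Rps27, had the highest ratio by the naming rule: 1.91 in sham and 12.9 in TAC hearts, a log2 ratio of 2.26 (0.90 to 5.06). On 10% fat it also had 12.9 in TAC hearts, with 6.36 in sham hearts, so the low value was that of the sham library on 60% fat. Rpl8, which lies close to the peptidyl transferase centre, had 3 in sham and 14.3 in TAC hearts, with 1.93 (0.50 to 4.75), and likewise 14.1 in TAC hearts on 10% fat. Rpl30 had 2.75 and 11.1, with 1.69 (0.11 to 4.47). Here too the sham library on 60% fat was the lowest of the 4. Rpl8 and Rpl30 were called only in the TAC library on 60% fat. They thus entered the table through the library where they are high in this comparison. Rps27l was called in the TAC library on each diet and in no sham library, so it too entered through libraries where it is high.

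Of the other regions that reached 2-fold higher, Rpl14 had 5.36 in sham and 15.2 in TAC hearts, with 1.35 (0.46 to 2.74). Rps7 had 7.36 and 16.1, with 1.03 (0.08 to 2.24). Rps2, at the mRNA entry of the small subunit, had 6.73 and 15.1, with 1.06 (0.22 to 2.12). In all 3 the TAC library on 60% fat was the highest of the 4. Rps7 was called only in that library and so entered the table through it. The others past 2-fold had 1.13 to 1.91. Among them were Rpl29 at its start and the Rpl9 region 482 bp inside the gene. The rest were the region 3112 bp upstream of Rpl35 at Arpc5l and that 11275 bp downstream of the Rps28 start. All of these others but Rpl29 were called only in the TAC library on 60% fat. By the naming rule, which leaves out regions of low signal, the lowest ratios were -0.93 (-2.51 to 0.20) at the Rps28 start, -0.92 (-2.70 to 0.53) at the region 7049 bp downstream of the Rpl35 start, which lies at Wdr38, and -0.52 (-1.70 to 0.65) at Rps15. Their counting intervals included 0. The Rps28 start was called only in the sham library on 60% fat and so entered the table through the library where it is high.

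**Figure D3:**
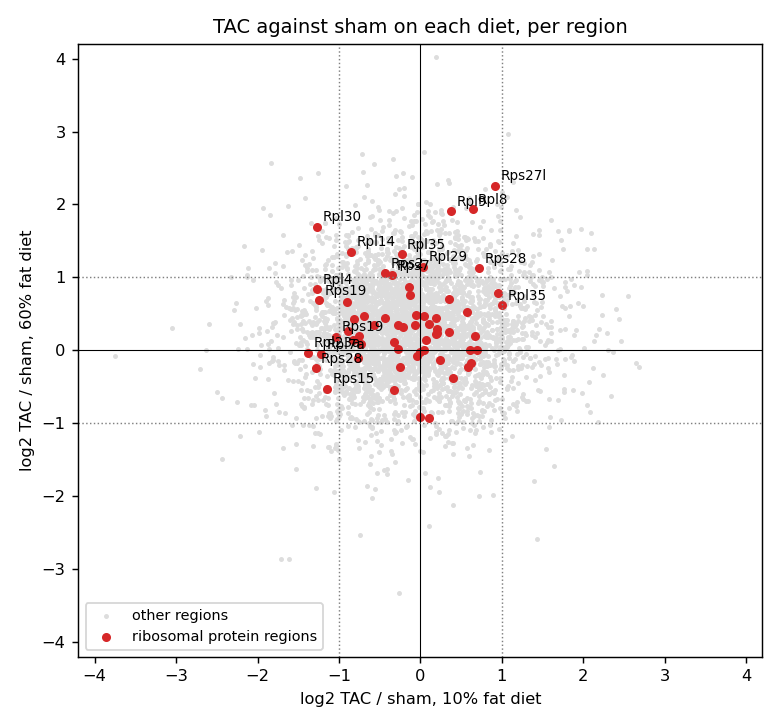
TAC over sham as a log2 ratio per region, with 10% fat (x axis) and with 60% fat (y axis), with ribosomal protein regions in red over all other regions in grey dotted lines at 2-fold, and names on the members past 2-fold on either axis. Of the 61 red points 25 lie to the left of 0 and above 0, and 18 are above 0 on each axis. Among them only Rpl30 is past 2-fold lower with 10% fat and past 2-fold higher with 60% fat. Of all 3885 regions 69 are.

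The 2 ratios come from separate libraries. In 25 of the 61 regions (41.0%) TAC was the lower library on 10% fat and the higher one on 60% fat, against 38.3% of all regions. In 18 (29.5%) it was higher on each diet, against 29.9%. The difference of the log2 ratios, 60% fat minus 10% fat, had a median of 0.53 (0.25 to 0.92), beside 0.45 over all regions. It was beyond 1 log2 unit upward in 20 of 61 regions (32.8%), against 28.9% of all, and downward in 1 (1.64%), against 8.70%. After centring these were 8 and 7 regions. The largest by the naming rule was at Rpl14, with 2.20, from 13 (sham) and 6.79 (TAC) with 10% fat to 5.36 and 15.2 with 60% fat. The region 5987 bp downstream of the Rpl4 start had 2.10, and the upstream Rps19 region 1.93. Rpl30, picked after its values were seen, had 2.96, from 10.1 and 3.625 to 2.75 and 11.1. A high value in sham hearts on 10% fat or in TAC hearts on 60% fat raises the difference. The regions named here were called only in those libraries, Rpl14 in both. In the other direction, by the naming rule, stood the Rps28 start with -1.04, Rplp1, another stalk gene, with -0.81, and the region 7518 bp downstream of the Rplp2 start with -0.79. Rplp1 had 10.4 and 16.1 on 10% fat and 8.89 and 7.44 on 60% fat. The Rps28 start was called only in sham hearts on 60% fat, and Rplp1 and the Rplp2 region only in TAC hearts on 10% fat. A high value in either library lowers the difference, so these regions too entered the table through the library where they are high.

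In sham hearts the comparison of diets asks how fat feeding without pressure load goes with the signal. Signal was lower on 60% fat in 56 of the 61 regions, as it was in 3110 of all 3885. The median log2 ratio was -0.61 (-0.75 to -0.46), beside -0.57 over all regions. Of the 61, 18 (29.5%) were at least 2-fold lower, against 24.8% of all, and 0 at least 2-fold higher, against 2.01%. The sham library on 60% fat had the fewest estimated fragments over all regions, and depth and diet cannot be told apart here: centred on the all-region median, the member median was -0.036, with 1 region 2-fold lower and 1 higher. In the 46 member regions called in a TAC library 10 were 2-fold lower (21.7%), beside 14.2% of all such regions.

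The lowest ratios in sham hearts by the naming rule were at Rps19, with -1.40 (-3.06 to -0.30) in its upstream region and -1.18 (-2.38 to -0.26) at its start, and at the region 7575 bp upstream of Rpl7a, at Surf6, with -1.40 (-3.00 to -0.21). The Rps19 regions went from 22 to 7.71 and from 17.9 to 7.33. Both were therefore highest in the sham library on 10% fat by a wide margin over its counterpart. The Rps19 regions and the region at Surf6 were called only in that library. They thus entered the table through the library where they are high. Rpl29 at its start, picked after its values were seen, was lower still, with 11.5 and 3.125 and a ratio of -1.60 (-4.47 to -0.11). Rps3, a protein of the mRNA entry channel picked afterwards, had 15.1 and 6.65, with -1.07 (-2.08 to -0.30). The highest ratios by the naming rule were 0.42 (-0.65 to 1.70) at the Rps28 start, with 12 and 16.4, and 0.05 and -0.14 at the Rplp2 regions 7518 bp downstream and 135 bp upstream of its start. Of these, the Rps28 start was called only in the sham library on 60% fat, where it is high.

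In TAC hearts the median log2 ratio of 60% over 10% fat was -0.084 (-0.28 to 0.12), beside -0.14 over all regions. Of the 61 regions 4 (6.56%) were at least 2-fold higher on 60% fat, against 7.00% of all, and 6 (9.84%) at least 2-fold lower, against 11.3%. Both shares were near the background. Centring turned the median to 0.061, with 4 regions higher and 3 lower. In the 44 member regions called in a sham library 1 was higher and 2 were lower (2.27% and 4.55%), beside 3.25% and 5.19% of all such regions. Rpl14 had 6.79 and 15.2, with 1.06 (0.17 to 2.22), and was the region whose counting interval lay above 0. Rpl30 had 1.39 (-0.14 to 3.67) and the Rpl9 region 482 bp inside the gene 1.07 (-0.50 to 3.01), both picked after their values were seen. The region 5987 bp downstream of the Rpl4 start had 6.33 and 14.2, with 1.05 (-0.25 to 2.89). That upstream of Rpl35 at Arpc5l had 7.6 and 14, with 0.80 (-0.28 to 1.96). Apart from Rpl14, these named regions were called only in the TAC library on 60% fat.

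Lower on 60% fat in TAC hearts was the upstream region of Rps14, a small subunit gene, with 16.8 and 5 and a log2 ratio of -1.57 (-3.40 to -0.05). The region at the Rps14 start itself had 15.3 and 12.4, so its neighbour did not share the size of that ratio. Rps23, a protein of the decoding centre, had 15.5 and 5.82, with -1.27 (-2.60 to -0.28). The region 2702 bp upstream of Rpl18 had 18.8 and 7.27, with -1.26 (-2.42 to -0.31). Rplp1, at -1.02, also passed 2-fold. The upstream Rps14 region, Rps23 and Rplp1 were called only in the TAC library on 10% fat. They thus entered the table through the library where they are high.

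**Figure D4:**
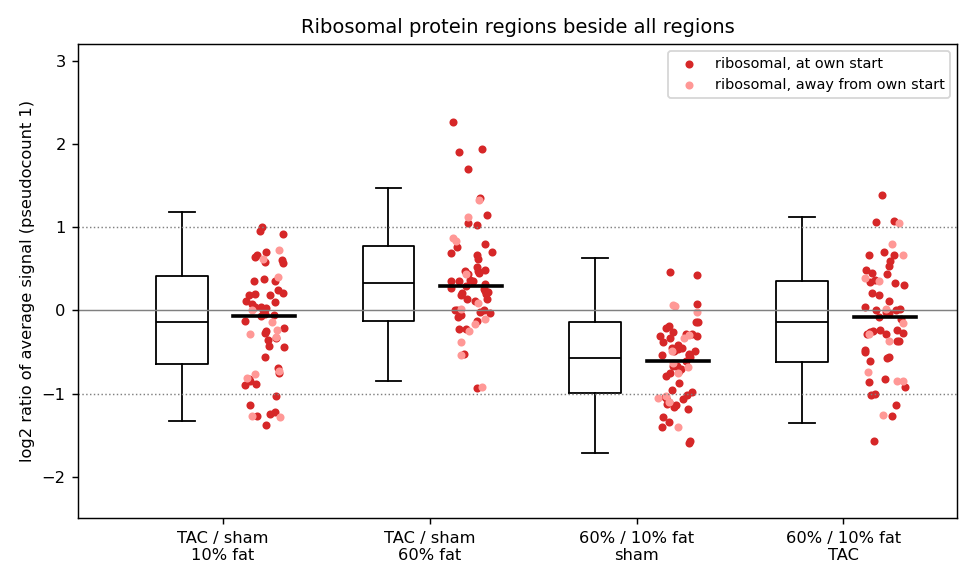
Log2 ratios of average signal for the 4 comparisons (x axis), with a box for all 3885 regions (median, quartiles, whiskers at the 5th and 95th percentile) and red points for the 61 ribosomal protein regions, lighter where away from the own start; the bar is their median. The member medians of -0.071, 0.30, -0.61 and -0.084 lie close to those of all regions, and dotted lines mark 2-fold.

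Of the 48 symbols 10 had more than 1 region, and regions of one gene did not keep to one pattern. Rps28, a protein at the mRNA exit, was named in 4 regions. At its start, shared with Ndufa7, the signal was 12 (sham) and 13 (TAC) with 10% fat, and 16.4 and 8.14 with 60% fat. The region 2438 bp upstream had 12.6, 4.56, 7.44 and 6.11 in the same order, and that 6875 bp downstream had 17.25, 10, 7.5 and 8. The region 11275 bp downstream had 5.75, 10.1, 5.67 and 13.6 and was the member region without a promoter. The start was thus highest in sham hearts on 60% fat, both neighbouring regions were highest in sham hearts on 10% fat, and the farthest was highest in TAC hearts on 60% fat. Each of the 4 was called only in the library where it was highest and entered the table through it. Their differing order of libraries therefore cannot be told apart from that entry.

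Rpl35 had 3 regions. At its start the signal was 6.58 and 14.2 on 10% fat and 4.42 and 7.33 on 60% fat. TAC was the higher library on each diet, but on 60% fat the log2 ratio of 0.62 had a counting interval (-0.68 to 2.18) that included 0. The region 3112 bp upstream, at the start of Arpc5l (an Arp2/3 subunit), had 9.1, 7.6, 5 and 14, and that 7049 bp downstream had 10.9, 10.9, 11.4 and 5.57. Rplp2 had 3 as well, with 11.8, 18.7, 12.2 and 10.8 at 7518 bp and 17.3, 9.735, 7.94 and 7.29 at 8423 bp downstream. The last pair, 2 neighbouring regions at Pnpla2, had its highest signal in different libraries. Each of the pair was called only in its highest library, as were the regions at the Rpl35 start and at Arpc5l. The stalk genes Rplp0, Rplp1 and Rplp2 each had a region at the start, and Rplp0 had 12.3 and 10 on 10% fat and 11.1 and 14.4 on 60% fat. At Rps19 both regions had the same order, highest in sham hearts on 10% fat, and both were called only in that library.

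**Figure D5:**
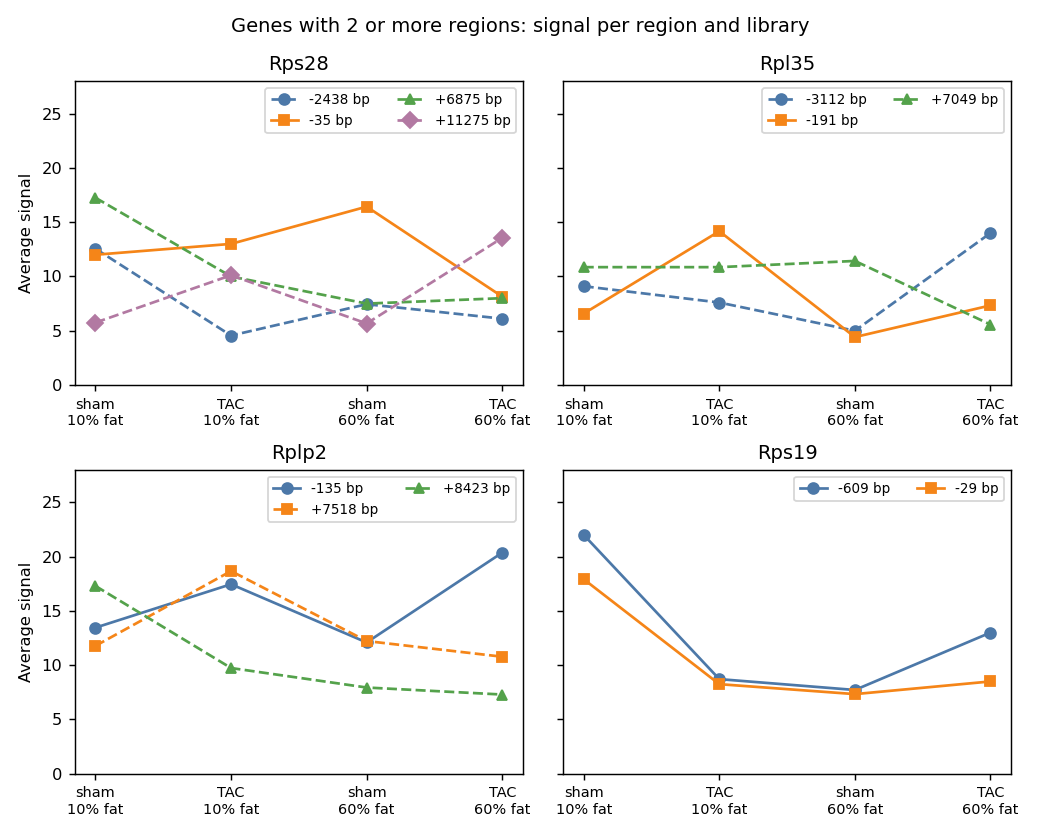
Average signal (y axis) in the 4 libraries (x axis) for the regions of Rps28, Rpl35, Rplp2 and Rps19, 1 line per region with its distance from the gene start, solid within 1000 bp and dashed beyond. The Rps19 lines run together from 22 and 17.9 in sham hearts on 10% fat, while the 4 Rps28 lines cross.

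Related genes of protein synthesis were counted the same way. Of 27 translation genes with terminal oligopyrimidine mRNAs 16 (59.3%, 40.7 to 75.5%) were named, among them Eef2, the elongation factor that moves the ribosome along, and Eif4b, an initiation factor. Of 40 ribosome biogenesis genes 18 (45%, 30.7 to 60.2%) were, among them Utp3 and Nop14 of the small subunit processome, and of 78 mitochondrial ribosomal protein genes 36 (46.2%, 35.5 to 57.1%). The interval of each list overlaps that of the cytosolic ribosome, and no difference was tested. At own starts the cytosolic list had 55.7% (44.7 to 66.1%), the biogenesis list 37.5% (24.2 to 53.0%), the mitochondrial list 37.2% (27.3 to 48.3%) and all protein-coding genes 13.6%. TAC over sham with 10% fat had a median log2 ratio of -0.24 over 44 mitochondrial ribosomal regions, -0.58 over 20 regions of the translation list and 0.025 over 21 regions of the biogenesis list. On 60% fat these medians were 0.28, 0.16 and 0.10.

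The promoter windows were searched for motifs on both strands over 300 bases. CCGGAAG, the core bound by ETS factors, was in 38.1% of the 42 member windows, in 37.0% of the 27 windows of standard genes without a region and in 8.86% of all windows. GGGCGG, the core bound by Sp1, was in 57.1%, 70.4% and 35.7%, and AAGATGGC, an element of the YY1 type, in 7.14%, 18.5% and 2.75%. CACGTG, the E-box, was in 7 of 42 windows (16.7%), in 1 of 27 (3.70%) and in 7.15% of all. TATAAA, the TATA box, was in 11.9%, 3.70% and 13.6%. On the sense strand, from 50 bases before the start to the window's end, CTTTCC was in 23.8%, 40.7% and 4.69%, and CTCTTT in 28.6%, 40.7% and 3.99%. These are matches of letters and no sites of binding, and windows of 1 gene can overlap.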

How the data were processed

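Anti-ACAA2 ChIP-seq regions were taken from 1 deposited table of 4 libraries, 1 per group. BWA, SICER and mm10 are named in the submitters' processing notes. Versions, read filters, depth matching and the handling of reads that map to several places, which bears on genes with pseudogenes, are not given in these sources. The authors merged called intervals into regions, per the file headers, and deposited 2 kinds of signal per region, the mean and the maximum of the fragment pileup. The maxima were whole in 100% of regions, which leaves no room for a multiplying depth factor but would also hold after reads were drawn down to a matched depth. The authors' deposited log2 ratios were checked and equal those of the average signals. Whether positions count from 0 or 1 is not given.

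Log2 ratios were computed here from the average signal with a pseudocount of 1, and regions were counted where they reached 2-fold. A called region is one with an interval called by the authors in that library. Fragments were estimated as signal times length over 224, the constant that links the authors' own estimate to their signal, and rounded for the exact Clopper-Pearson 95% interval of a single ratio, which is without pseudocount. Medians have a binomial order-statistic interval and shares a Wilson interval. Fragments have no molecular identifiers, and the Clopper-Pearson intervals cover counting error only. The median and Wilson intervals describe spread over regions or genes. No interval covers the spread between hearts. With 1 library per group there is no test. Member symbols (48 of 48) and 5014 of the table's 5134 symbols matched RefSeq (GRCm38.p6, the same assembly as mm10). The members, lists and the naming rule were chosen with earlier results of these data known. The rule names the 6 highest mean signals, 3 highest and 3 lowest ratios per comparison and difference among regions whose higher library reaches the all-region median, regions called in all 4 libraries, and paralogs. Some members that the rule names are not reported here. Other regions named, such as those 2-fold changed, were chosen after their values were seen. The run of C and T was chosen after the data were seen. Functions were tested on simulated counts. Python 3.11.15, numpy 2.4.6, pandas 2.3.3, scipy 1.17.1 and matplotlib 3.10.9 were used.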

Additional observations from a re-analysis of the deposited data

Results flagged for a closer look

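Over the 61 ribosomal protein regions the median log2 ratio for TAC against sham was -0.071 on 10% fat and 0.30 on 60% fat, opposite in sign, and the difference was not tested. The medians of all regions, -0.14 and 0.32, were opposite in sign as well. Among single regions, those at least 2-fold changed in opposite directions were listed. For TAC over sham, 1 of the 61 was lower on 10% fat and higher on 60% fat, against 69 of all 3885 regions. For 60% over 10% fat, 3 of the 61 were lower in sham and higher in TAC hearts, against 53 of all 3885. Rpl30 was at -1.27 for TAC over sham on 10% fat and at 1.69 on 60% fat, and for 60% over 10% fat at -1.57 in sham and 1.39 in TAC hearts. Rpl14 was at -1.14 for 60% over 10% fat in sham hearts and at 1.06 in TAC hearts. The region 5987 bp downstream of the Rpl4 start was at -1.06 and 1.05 in the same 2 comparisons. These differences rest on 1 library per group and were not tested. Rpl30 and the region downstream of the Rpl4 start were called only in the TAC library on 60% fat. Rpl14 was called only there and in the sham library on 10% fat. The Rpl30 region is 242 bp long.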

How the results depend on the processing

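No paired analysis was possible because each group has 1 library, and for the same reason no library could be left out in turn. Centring on the all-region median, which removes the shared level by construction, turned the median of TAC over sham on 60% fat to -0.026, moved that of 60% over 10% fat in sham hearts to -0.036 and the diet difference to 0.078. Quantile normalization gave -0.0041, -0.046 and 0.066. The share 2-fold higher after TAC on 60% fat went from 16.4% to 8.20% with centring, 6.56% with quantile normalization or a pseudocount of 5, 8.70% in regions at or above the all-region mean signal and 7.84% in regions with a call outside the compared pair. The share 2-fold lower in sham hearts on 60% fat went from 29.5% to 1.64% with either scaling and 3.28% with a pseudocount of 5, which moved that median to -0.45. The shares of the diet difference went to 13.1% and 11.5% with centring, 14.8% and 11.5% with quantile normalization, and 13.1% and 0% with a pseudocount of 5. A pseudocount of 5 also left 0% higher and 1.64% lower for TAC over sham on 10% fat and for the diets in TAC hearts.

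For TAC over sham on 10% fat, 6.56% were lower with peak signal and 5.88% in regions with a call outside the compared pair, and 0% higher in the latter, in regions of high mean signal and with 1 value per gene. For the diets in TAC hearts, 1.64% were higher with peak signal, 2.27% higher and 4.55% lower in regions with a call outside the compared pair, and 2.86% lower in the RefSeq start windows. One value per gene left 0% of diet differences downward. The 6 regions assigned to a single gene gave medians of 0.13 for TAC over sham on 60% fat, -0.57 for the diets in TAC hearts and -0.059 for the diet difference, the last reversed. Their shares were 0% higher and 0% lower for TAC over sham on 10% fat, 0% lower for the diets in sham hearts, 0% higher and 33.3% lower for the diets in TAC hearts, and 0% downward for the diet difference. All 6 (100%) held a promoter, and 5 standard genes had such a region, against 46 in any. The other 141 recomputed values of these results stayed within the interval or limit set around the reported value, as did 737 of 750 values of single named regions. Calls outside the compared pair give no value for the diet difference, which uses all 4 libraries. The alternative restricted to regions within 1000 bp of the own start was chosen after seeing the data. With about 15.6 to 22.6 fragments in the median member region, most single ratios are imprecise.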
